A study of Mus musculus with 10 samples.

Results

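The acute response of the mouse hippocampus to status epilepticus (SE) was measured by cap analysis of gene expression (CAGE), which sequences the capped 5′ ends of RNA, each tag marking where a transcript begins. Libraries from 2 mice at 6 h after SE (SE 6 h) were compared with libraries from 2 mice without SE (pre-SE), and these are 4 of the 10 libraries of the series. They were chosen by their labels and not by any measured value. All mice were male ICR mice, and the whole hippocampus was used. SE 6 h mice were 9 to 10 weeks old and received methyl scopolamine (1 mg/kg), a muscarinic blocker that hardly enters the brain, then pilocarpine (PILO, 290 mg/kg), an agonist of muscarinic acetylcholine receptors that provokes seizures. SE was reached after 5 generalized convulsive seizures and was stopped with diazepam (10 mg/kg), which enhances inhibition through GABA receptors. The labels call the pre-SE mice untreated, whereas the methods describe controls with saline in place of PILO, so that the effects of SE, PILO, methyl scopolamine and diazepam cannot be told apart. No mouse of these 2 groups received levetiracetam (LEV). Mice at 2 days after SE without LEV (SE 2 days, n = 2) were used to show where the response at 6 h differed from a later time. All 10 libraries, those of mice with LEV included, entered the fit. The standard errors and p-values of the comparison at 6 h thus rest on the spread within all 5 groups.

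The hippocampus holds excitatory granule cells of the dentate gyrus and pyramidal cells of the CA fields, inhibitory interneurons, astrocytes, oligodendrocytes, microglia and vessels. Intense firing raises calcium in neurons and switches on immediate early genes, which need no new protein synthesis because their promoters are bound by factors that are already present, such as CREB and SRF. Many of these genes encode transcription factors of the AP-1, EGR and NR4A families, and others encode proteins that act at synapses or restrain kinase signalling. Injured tissue also turns on chaperones, growth arrest genes and cytokine signalling in glia and vessels. In RNA from a whole tissue, fewer cells of a type and less RNA per cell cannot be told apart.

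Depth, estimated from the steps of the deposited values, ran from 14594579 to 51710968 tags per library. The limit of detection was set at 3 tags, which correspond to 0.058 to 0.206 CPM, the unit of tag counts scaled to the size of the library. Across genes, log2(CPM + 0.1) correlated with an r of 0.977 between the pre-SE mice and 0.971 between the SE 6 h mice, which describes these libraries only, since genes are not independent replicates. Levels below are given for mouse 1 and then mouse 2 of a group. Markers of hippocampal neurons were present in every mouse, and the summed level of the CA3 and CA2 pyramidal cell list was 2195 and 2269 CPM in the pre-SE mice and 2280 and 1924 CPM in the SE 6 h mice. The share of choroid plexus tissue, which lines the ventricle beside the hippocampus, was uneven. *Ttr*, the transthyretin gene that this tissue transcribes at a very high rate, was at 5.83 and 1668 CPM in pre-SE mice 1 and 2 and at 4.33 and 3936 CPM in SE 6 h mice 1 and 2. Mouse 2 of each group was thus far above mouse 1, and none of the 12 tested choroid plexus and ependyma markers was called between the groups. The part of this tissue in the results that follow was not tested. Of 18 lymphocyte markers, only *Lck* was listed in enough libraries to be tested, at 1.21 and 0.64 CPM in the pre-SE mice and 0.71 and 0.55 CPM in the SE 6 h mice. Hemoglobin and other erythroid genes, of which 4 of 9 were tested, were lower in both SE 6 h mice than in both pre-SE mice, and none was called.

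At 6 h after SE, 437 of 15851 genes were called higher (2.76%) and 32 were called lower (0.202%) than in pre-SE mice (limma on log2(CPM + 0.1), adjusted p of at most 0.05). The groups did not overlap at any of these 469 genes. Over all genes tested, the lowest SE 6 h level exceeded the highest pre-SE level at 2954 genes (18.6%), and the reverse held at 4963 genes (31.3%). The median logFC, which is the difference of the group means on the log2(CPM + 0.1) scale and understates the change of genes with low CPM, was 2.43 over the genes called higher and −1.88 over those called lower. Of the genes called higher, 149 had a logFC over 3 and 30 had a logFC over 5, while 1 gene called lower had a logFC beyond −3. Genes called higher took 1.06% and 1.10% of all tags in pre-SE and 5.89% and 4.52% in SE 6 h mice. Genes called lower went from 0.145% and 0.157% to 0.0632% and 0.0588%. Each CPM value is a share of the library, and the median logFC over all 15851 genes was −0.13. With the libraries rescaled by median ratios that median was −0.0047, and 532 genes were called higher and 22 lower. Rescaling raised the median of each gene list given below by 0.060 to 0.13, so that list medians near 0 are to be read against −0.13. Likewise, counts of called members in a list are to be read against 2.76% of all genes called higher and 0.202% called lower. The calls rested on all 4 mice. There were 138 genes called higher and 2 lower without pre-SE mouse 1, 154 and 3 without pre-SE mouse 2, 182 and 9 without SE 6 h mouse 1, and 108 and 5 without SE 6 h mouse 2. All 469 genes kept their direction in these 4 fits, and 79 genes called higher and 1 called lower, *Tmem119*, were called in each of them. Within the gene lists described next, leaving out a mouse left 6 to 8 of 11 calls among AP-1 and ATF factors, 6 to 10 of 16 among synaptic effectors, 2 to 5 of 6 among heat shock genes, 3 or 4 of 14 among reactive astrocyte genes and 1 or 2 of 3 losses among microglia markers.

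**Figure D1:**
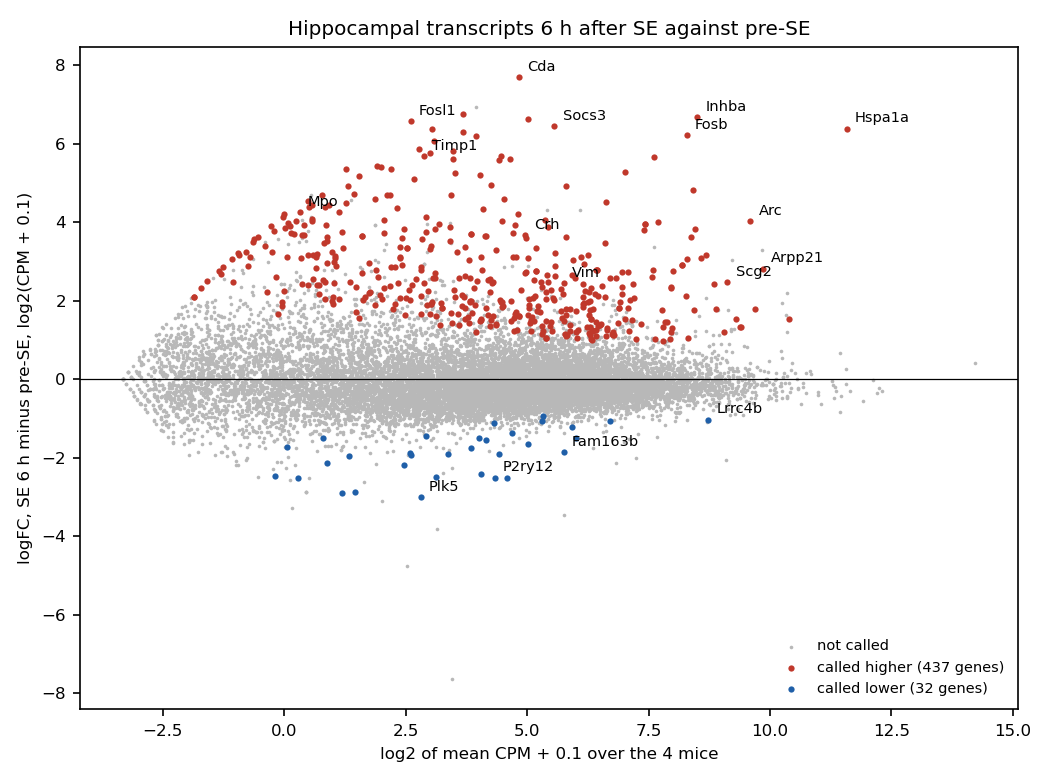
Each point is a gene, with the log2 of its mean CPM + 0.1 over the 4 mice on the x axis and its logFC, SE 6 h minus pre-SE on the log2(CPM + 0.1) scale, on the y axis. Genes called higher (437) in red spread to a logFC of 7.701 for *Cda*, and genes called lower (32) in blue reach −3.001 for *Plk5*.

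Transcription factors of the AP-1 and ATF families, which pair up through leucine zippers, were the function list with the highest median. Of 16 tested members 11 rose and 0 fell (68.8% against 2.76% of all genes called higher), with a median logFC over the list of 2.59 against −0.13 over all genes. *Fosb*, a FOS family partner of JUN proteins, was at 5.90 and 11.2 CPM in the pre-SE mice and 586 and 645 CPM in the SE 6 h mice, with a logFC ± standard error of 6.22 ± 0.69 (adjusted p = 0.00234). *Atf3*, an ATF factor induced by many stresses, went from 0.24 and 1.10 CPM to 67.5 and 59.5 CPM (logFC 6.63 ± 0.91, adjusted p = 0.00499). *Maff*, a small MAF protein that lacks an activation domain, went from 1.03 and 0.52 CPM to 45.96 and 40.8 CPM (logFC 5.697 ± 0.48, adjusted p = 0.00138). At these 3 genes the SE 6 h mice lay close to each other and far above both pre-SE mice. *Fosl1*, another FOS family gene, had a logFC of 6.58 ± 0.79. Among the members with the most tags, *Jun* rose from 139 and 147 CPM to 810.2 and 742 CPM (logFC 2.44 ± 0.33) and *Fosl2* from 69.1 and 89.5 CPM to 534 and 828 CPM (logFC 3.08 ± 0.47). *Jund*, a JUN member with a steady level in most tissues, was at 302 and 107 CPM in pre-SE and 571 and 518 CPM in SE 6 h mice and did not pass the test (adjusted p = 0.152).

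Other inducible factors showed the same direction, with 14 of 32 tested members called higher, 0 called lower and a list median of 1.72. The neuronal factor *Npas4*, which responds to calcium and not to growth factors, went from 5.55 and 7.54 CPM to 580.2 and 189 CPM (logFC 5.66 ± 0.63, adjusted p = 0.00234). *Egr4*, a zinc finger factor, went from 25.6 and 78.9 CPM to 704 and 591 CPM (logFC 3.84 ± 0.81, adjusted p = 0.0345), and *Egr2* of the same family had a logFC of 4.93 ± 0.78. *Myc*, a factor that drives growth and ribosome production, was at about 1 CPM in both pre-SE mice and at 10.5 and 21.4 CPM in the SE 6 h mice (logFC 3.82 ± 0.43, adjusted p = 0.00234). *Egr1* had many more tags but unequal pre-SE mice, with levels of 97.2 and 247 CPM in the pre-SE mice and 2259 and 1035 CPM in the SE 6 h mice, and it missed the threshold (adjusted p = 0.0584). *Klf9*, a target of glucocorticoids, was at 168 and 152 CPM in pre-SE and 202 and 279.8 CPM in SE 6 h mice (adjusted p = 0.284).

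**Figure D2:**
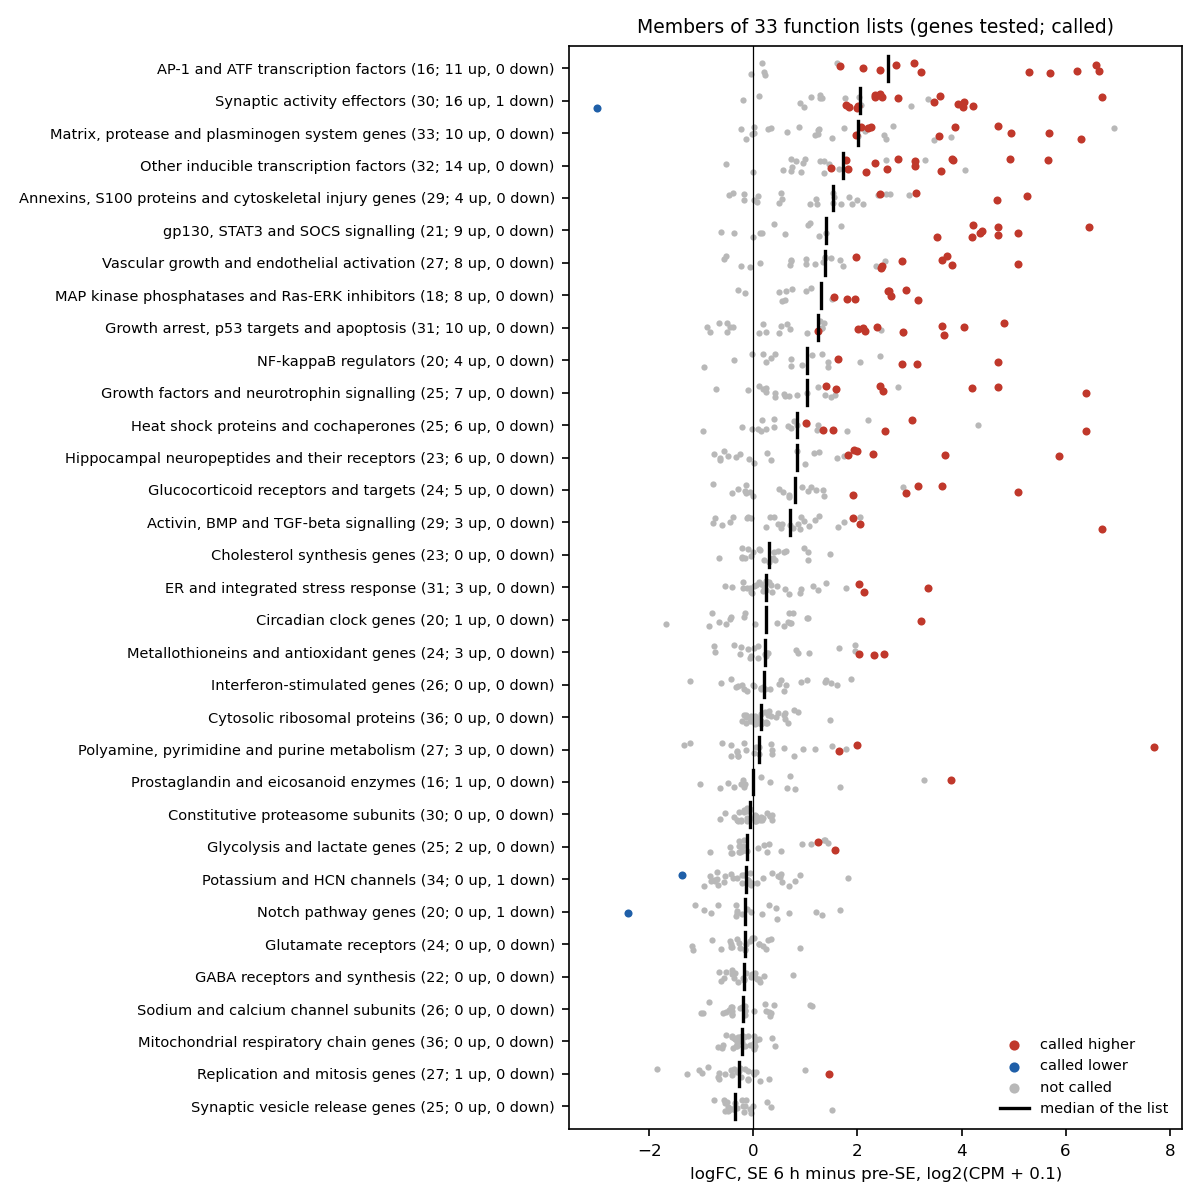
Each row is 1 of 33 gene lists, each point is a member placed by its logFC (SE 6 h minus pre-SE, log2(CPM + 0.1) scale) and the black bar is the median of the list. The AP-1 and ATF list lies at the top with a median of 2.59. Lists of respiratory chain and receptor genes lie near the median of all genes (−0.13), and the synaptic vesicle list lies lowest at −0.35. None of these lower lists has a member called.

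Genes that restrain MAP kinase signalling rose in part. Of 18 tested phosphatases and Ras-ERK inhibitors 8 were called higher and 0 lower (list median 1.31). *Errfi1*, an inhibitor of EGF receptor kinases, had levels of 77.9 and 88.9 CPM in the pre-SE mice and 718 and 766 CPM in the SE 6 h mice (logFC 3.15 ± 0.44, adjusted p = 0.00542). *Dusp1*, a nuclear phosphatase for MAP kinases, went from 14.1 and 16.98 CPM to 81.98 and 174 CPM (logFC 2.94 ± 0.404), *Dusp4* had a logFC of 2.65 ± 0.55 and *Spry2*, an inhibitor upstream of Ras, went from 71.04 and 38.8 CPM to 386 and 262 CPM (logFC 2.598 ± 0.44). *Spred2* and *Spred1*, 2 abundant members of a related inhibitor family, were not called, and *Spred2* was at 112 and 137 CPM in pre-SE and 227 and 187 CPM in SE 6 h mice.

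Effector genes of synaptic activity, whose products act on receptors, dendrites, secretory granules or cell signalling, were among the genes with the most tags. Of 30 tested members 16 were called higher and 1 was called lower, with a list median of 2.05. The strongest was *Inhba*, which encodes the activin A subunit, at 7.69 and 5.30 CPM in the pre-SE mice and 972 and 461 CPM in the SE 6 h mice (logFC 6.69 ± 0.85, adjusted p = 0.00361). *Arc*, whose protein drives the removal of AMPA receptors from synapses, went from 58.1 and 108 CPM to 2129 and 789.6 CPM (logFC 4.03 ± 0.52, adjusted p = 0.0037). *Scg2*, a granule protein that is cut into the peptide secretoneurin, went from 181 and 158 CPM to 973 and 915 CPM (logFC 2.48 ± 0.39). The kinase gene *Pim1* and the growth arrest gene *Gadd45b* had logFC values of 4.22 ± 0.76 and 4.06 ± 0.36. The exception was *Plk5*, a polo-like kinase gene of neurons, which fell from 9.73 and 15.01 CPM to 1.28 and 1.58 CPM (logFC −3.001 ± 0.54, adjusted p = 0.0165). *Rgs4*, a brake on G protein signalling, had levels of 275 and 236 CPM in the pre-SE mice and 1023 and 728 CPM in the SE 6 h mice, which did not overlap, but it was not called (adjusted p = 0.0717).

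The cAMP response element TGACGTCA, the site that CREB and ATF proteins bind, was looked for on both strands in RefSeq promoters of build GRCm38.p6, from 250 bases before to 50 bases after each start. RefSeq entries were found for 13 of the 16 synaptic effectors called higher, and 4 of these 13 (30.8%) held the motif, which was found in 2.03% of the 27025 genes of the promoter table and in 3.57% of the entries matched to genes tested here, a share that covers 71.2% of those genes. Over all 30 tested synaptic effectors, called or not, 23 had an entry (76.7%), and 5 of these 23 (21.7%) held the motif. The list as a whole was thus also above the share over genes tested. Of 9 entries for AP-1 and ATF genes called higher 1 held the motif, and of 12 for reactive astrocyte genes called higher 0 did. The SRF site (CArG box) was in 0 of the 13 entries for synaptic effectors called higher and in 0 of the 9 for AP-1 and ATF genes. It was in 1.62% of the entries matched to genes tested, so that few were to be met in sets of this size. The 4 matches of TGACGTCA are shown in capitals with up to 26 bases on each side, read along the strand of the gene, because they are the letters these induced genes share. They lie 26 to 121 bases before the start, at chr11:101665489-101665540 (plus strand) for *Arl4d*, chr13:75089753-75089812 (plus strand) for *Pcsk1*, chr1:79440061-79440120 (minus strand) for *Scg2* and chr2:15055173-15055232 (plus strand) for *Arl5b*.
Arl4d: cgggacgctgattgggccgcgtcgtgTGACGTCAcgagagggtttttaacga
Pcsk1: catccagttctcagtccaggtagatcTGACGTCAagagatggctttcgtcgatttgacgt
Scg2: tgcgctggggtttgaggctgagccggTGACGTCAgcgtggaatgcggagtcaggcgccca
Arl5b: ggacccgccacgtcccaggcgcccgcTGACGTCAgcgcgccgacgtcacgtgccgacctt
A match describes the letters and does not show that a factor was bound.

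The genes behind these promoters were named for the motif and for being called higher. *Arl4d*, a small GTPase gene, went from 5.21 and 4.18 CPM to 48.4 and 68.3 CPM (logFC 3.595 ± 0.32, adjusted p = 0.00138). *Pcsk1*, the prohormone convertase that cuts peptide precursors in granules, went from 22.5 and 21.1 CPM to 145 and 154 CPM (logFC 2.77 ± 0.42, adjusted p = 0.00754). *Arl5b*, another small GTPase gene, went from 32.7 and 48.3 CPM to 249 and 163 CPM (logFC 2.34 ± 0.402). All 4 genes were at higher levels in both SE 6 h mice than in both pre-SE mice, as were all 437 genes called higher. Motif shares over all genes called higher are not given, because RefSeq entries were found for only 67.7% of them.

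Some genes of peptide transmitters rose, while the most abundant did not pass the test. Of 23 tested neuropeptide and receptor genes 6 were called higher and 0 lower, with a list median of 0.83. *Crh*, corticotropin-releasing hormone, which excites hippocampal neurons, went from 5.72 and 3.27 CPM to 46.3 and 69.2 CPM (logFC 3.68 ± 0.57, adjusted p = 0.00911). *Trh*, thyrotropin-releasing hormone, was at 0 and 0.41 CPM in the pre-SE mice and 12.3 and 14.1 CPM in the SE 6 h mice (logFC 5.88 ± 1.32, adjusted p = 0.0437). Its pre-SE level was low and its error was wide. *Sstr2*, a somatostatin receptor, went from 15.2 and 20.1 CPM to 91.6 and 81.1 CPM (logFC 2.29 ± 0.48), and neurotensin, *Nts*, had a logFC of 1.99 ± 0.39 and levels of 4.76 and 5.99 CPM in pre-SE and 14.6 and 31.5 CPM in SE 6 h mice. The substance P precursor *Tac1* rose from 4.90 and 6.38 CPM to 15.9 and 24.9 CPM (logFC 1.81 ± 0.42, adjusted p = 0.049), and it was also the only interneuron marker of 26 tested that was called. *Sst* was at 458 and 570.3 CPM in pre-SE and 657 and 1256 CPM in SE 6 h mice (adjusted p = 0.277) and *Cck* at 426 and 628 CPM in pre-SE and 331 and 334 CPM in SE 6 h mice (adjusted p = 0.221).

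Among growth factor and neurotrophin genes, 7 of 25 tested members were called higher and 0 lower (list median 1.02). *Areg*, an EGF family ligand, went from 0 and 0.21 CPM to 9.24 and 23.2 CPM (logFC 6.39 ± 1.02, adjusted p = 0.0102), and *Hbegf*, another ligand of the same receptor, from 3.76 and 5.55 CPM to 23.4 and 29.4 CPM (logFC 2.49 ± 0.53). *Lif*, a gp130 cytokine, had 0 and 3 tags in the pre-SE mice, worth 0 and 0.06 CPM, and 3.08 and 3.29 CPM in the SE 6 h mice (adjusted p = 0.00855). *Osm*, of the same family, was without a tag (0) in pre-SE mice and at 2.12 and 1.44 CPM in SE 6 h mice, at least 22.04-fold higher than the limit of detection of 3 tags per library. *Ntrk2*, the receptor of BDNF, had levels of 202 and 208 CPM in the pre-SE mice and 351 and 493 CPM in the SE 6 h mice and missed the threshold (adjusted p = 0.0529). In the activin, BMP and TGF-beta list, 3 of 29 members were called higher (10.3% against 2.76% of all genes) and 0 lower (list median 0.69). Beside *Inhba* these were *Smad7*, an inhibitor of TGF-beta receptors, at 24.7 and 35.5 CPM in pre-SE and 104 and 120.5 CPM in SE 6 h mice (logFC 1.91 ± 0.34), and the corepressor *Tgif1* (logFC 2.05 ± 0.47). *Skil* and *Id2*, 2 abundant targets of the pathway, were above the pre-SE range in both SE 6 h mice and were not called, with adjusted p values of 0.178 and 0.247.

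Chaperone genes were among the most changed by tag number. Heat shock proteins bind unfolded proteins, and the heat shock factor HSF1 switches on their genes through repeats of GAA and TTC. Of 25 tested heat shock proteins and cochaperones 6 were called higher and 0 lower (list median 0.83). *Hspa1a*, the inducible HSP70, at chr17:35106144-35109069 (mm9, minus strand), was at 47.6 and 41.5 CPM in the pre-SE mice and at 10861 and 1278 CPM in SE 6 h mice 1 and 2 (logFC 6.39 ± 0.89, adjusted p = 0.00542). In mouse 1 this gene alone took 1.09% of all tags, against 0.128% in mouse 2, and its level differed more between the SE 6 h mice than that of the other called members. *Hspa1b*, its near-identical neighbour, was at 6.14 and 3.87 CPM in pre-SE and 36.2 and 8.09 CPM in SE 6 h mice and was not called (adjusted p = 0.174), and tags that fit both genes may have been split or placed at either.

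The cochaperone gene *Dnajb1*, which delivers clients to HSP70, went from 58.5 and 71.4 CPM to 728 and 398 CPM (logFC 3.06 ± 0.34, adjusted p = 0.00234). *Bag3*, an exchange factor of HSP70 in aggregate clearance, went from 9.93 and 10.3 CPM to 74.6 and 46.6 CPM (logFC 2.53 ± 0.42). *Hsp90aa1*, the inducible HSP90, had levels of 378 and 266 CPM in the pre-SE mice and 1159 and 717 CPM in the SE 6 h mice (logFC 1.52 ± 0.34, adjusted p = 0.042), and *Dnaja1* rose from 332 and 439.8 CPM to 1088 and 856 CPM (logFC 1.34 ± 0.26). SE 6 h mouse 1 was above mouse 2 for each of these 4 genes, as for *Hspa1a*. The steady HSP90 gene *Hsp90ab1* was at 1965 and 1256 CPM in pre-SE and 2229 and 1368 CPM in SE 6 h mice (adjusted p = 0.855). *Hspa8*, the steady HSP70, was at 854 and 543 CPM in pre-SE and 2997 and 834 CPM in SE 6 h mice and was not called (adjusted p = 0.265).

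RefSeq promoters of build GRCm38.p6 were found for 20 of the 25 tested members of the heat shock list, and 12 of these 20 held the heat shock element core GAANNTTC on either strand, where it was found in 9.04% of the genes of the promoter table and in 6.89% of the entries matched to genes tested. Of the 5 called members with an entry 3 held it. In *Bag3* it lay after the start. The other two are printed with the match in capitals and 26 bases on each side, because they show the element in the called chaperone gene with the most tags and in a cochaperone. They are at chr17:34972227-34972286 (minus strand, the match 104 bases before the start) for *Hspa1a* and at chr4:40722318-40722377 (plus strand, 124 bases before the start) for *Dnaja1*.
Hspa1a: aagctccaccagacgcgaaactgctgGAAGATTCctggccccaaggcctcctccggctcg
Dnaja1: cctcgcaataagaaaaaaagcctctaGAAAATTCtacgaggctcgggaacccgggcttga
The centre of the element differs between them, and no measure of binding was made.

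**Figure D3:**
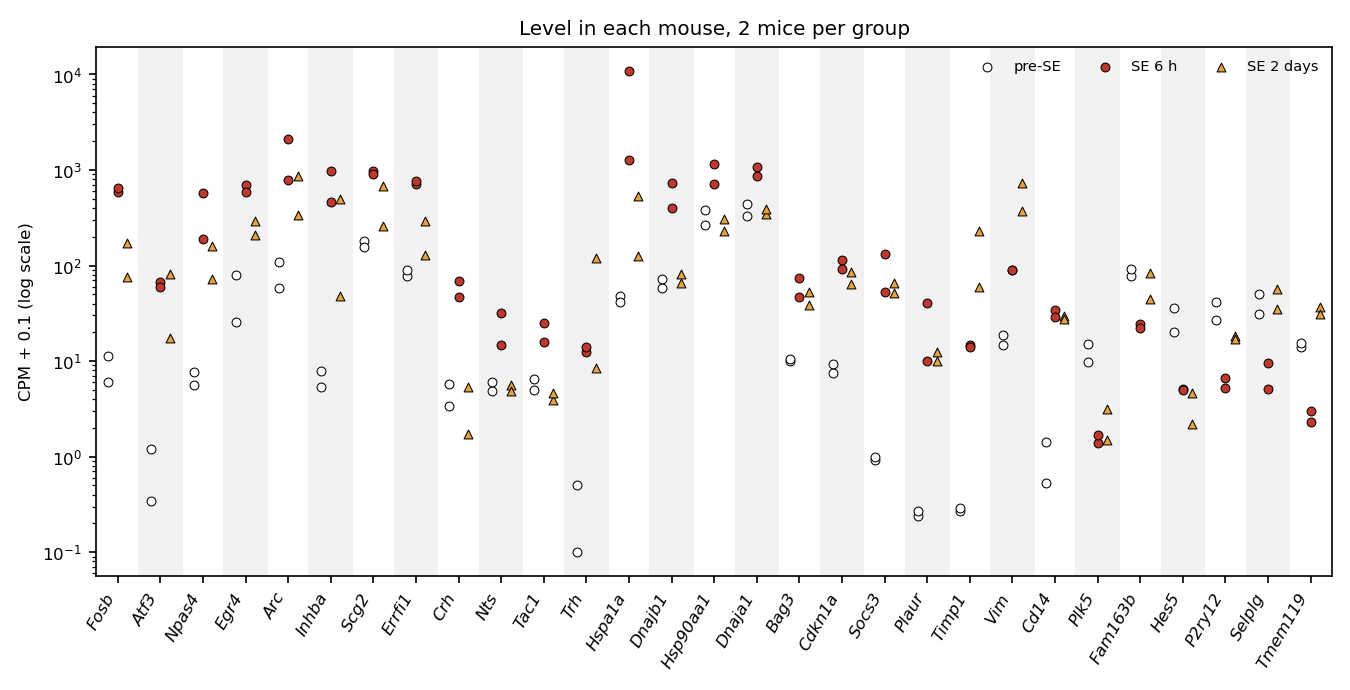
Levels of 29 genes in each mouse, as CPM + 0.1 on a log axis, with open circles for pre-SE, red circles for SE 6 h and triangles for SE 2 days (2 mice each). All genes shown were called, and pre-SE and SE 6 h points do not overlap at any of them, as at every called gene. *Hspa1a* has the highest SE 6 h point, at 10861 CPM.

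The unfolded protein and integrated stress response list covers the sensors and targets that react to trouble in the endoplasmic reticulum. It had 3 of 31 members called higher (9.68% against 2.76% of all genes) and 0 lower (list median 0.25). These were *Trib1*, a pseudokinase gene, which went from 6.59 and 6.23 CPM to 65.3 and 67.01 CPM (logFC 3.35 ± 0.38), *Ppp1r15a*, the phosphatase subunit that restores translation, from 16.5 and 10.7 CPM to 60.3 and 55.8 CPM (logFC 2.12 ± 0.34), and the cystine transporter *Slc7a11* (logFC 2.03 ± 0.44). The main chaperone of the endoplasmic reticulum, *Hspa5*, had levels of 181 and 236 CPM in the pre-SE mice and 412 and 577 CPM in the SE 6 h mice and was just outside the threshold (adjusted p = 0.0569). *Atf4*, the factor of this response, and its targets *Ddit3* and *Asns*, named after their values were seen, were not called.

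Growth arrest, p53 target and apoptosis genes had 10 of 31 members called higher and 0 lower (list median 1.24). *Gadd45g*, a stress and activity gene, went from 27.8 and 18.1 CPM to 835 and 483 CPM (logFC 4.81 ± 0.54, adjusted p = 0.00234). *Cdkn1a*, the cell cycle inhibitor p21, went from 9.14 and 7.33 CPM to 91.5 and 113 CPM (logFC 3.62 ± 0.36, adjusted p = 0.00229). *Bcl2a1b*, a survival gene of myeloid cells, had a logFC of 3.66 ± 0.68, and since it overlaps *Mthfs* on the same strand and has near-identical copies, its tags are uncertain. The abundant members *Plk2* and *Mdm2* were not called, and *Plk2* was at 352 and 364 CPM in pre-SE and 936 and 803 CPM in SE 6 h mice (adjusted p = 0.0661). Among metallothioneins and antioxidant genes 3 of 24 were called higher (12.5% against 2.76% of all genes) and 0 lower (list median 0.23). They included heme oxygenase, *Hmox1*, which went from 5.72 and 4.89 CPM to 35.8 and 26.4 CPM (logFC 2.52 ± 0.38), and *Srxn1*, a repair enzyme of peroxiredoxins, from 110.2 and 59.1 CPM to 502 and 326 CPM (logFC 2.32 ± 0.41). The zinc binding metallothioneins *Mt1* and *Mt2* were well above the pre-SE range but uneven, with *Mt2* at 496 and 426 CPM in pre-SE and 1102 and 2845 CPM in SE 6 h mice, and were not called (adjusted p = 0.118 and 0.178).

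Among stress hormone genes, 5 of 24 glucocorticoid receptors and targets were called higher (20.8% against 2.76% of all genes) and 0 lower (list median 0.81), and *Cdkn1a*, *Dusp1*, *Errfi1* and *Lcn2*, which other lists also hold, were 4 of the 5. *Sgk1*, a kinase induced by glucocorticoids, was at 134 and 73.3 CPM in pre-SE and 245 and 257 CPM in SE 6 h mice and was not called (adjusted p = 0.114). Of 20 clock genes 1 was called, *Nfil3*, which the AP-1 and ATF list also holds, at 7.10 and 11.2 CPM in pre-SE and 72.1 and 99.4 CPM in SE 6 h mice (logFC 3.23 ± 0.57), and *Per1* was not (adjusted p = 0.154). Among 16 prostaglandin and eicosanoid genes, mostly of enzymes, *Ptgs2*, the inducible cyclooxygenase, was the only member called, at 20.4 and 19.9 CPM in the pre-SE mice and 468 and 170.3 CPM in the SE 6 h mice (logFC 3.802 ± 0.61, adjusted p = 0.0103), and the list median was −0.01 (0.11 after rescaling). *Ptgds*, which makes prostaglandin D in meninges and choroid plexus, was at 618 and 1218 CPM in pre-SE and 1108 and 1822 CPM in SE 6 h mice, highest in mouse 2 of each group.

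Signalling through gp130 receptors and STAT3, which cytokines of the interleukin 6 family use, had 9 of 21 members called higher and 0 lower (list median 1.402). *Socs3*, the feedback inhibitor of these receptors, went from 0.83 and 0.89 CPM to 53.05 and 133 CPM (logFC 6.46 ± 0.58, adjusted p = 0.00138). *Lcn2*, a secreted iron carrier of reactive astrocytes and neutrophils, went from 0.24 and 0.27 CPM to 9.81 and 14.7 CPM (logFC 5.09 ± 0.85). *Bcl3*, a nuclear partner of NF-kappaB, went from 0.31 and 0.17 CPM to 7.89 and 9.18 CPM (logFC 4.69 ± 0.55, adjusted p = 0.00262). Apart from *Socs3*, the called members of this list are also on the growth factor, synaptic effector, NF-kappaB or reactive astrocyte lists. The counts of these lists are therefore not separate responses. Of 20 NF-kappaB regulators 4 were called higher and 0 lower (list median 1.02), namely *Bcl3*, *Nfkb2*, *Icam1* and *Rel*. *Nfkb2* was at 0.31 and 0.33 CPM in pre-SE and 3.69 and 3.49 CPM in SE 6 h mice (logFC 3.13 ± 0.47) and the adhesion gene *Icam1* at 1.52 and 1.59 CPM in pre-SE and 8.98 and 15.8 CPM in SE 6 h mice (logFC 2.86 ± 0.45). *Rel* had a logFC of 1.62 ± 0.31, and the NF-kappaB subunit gene *Rela*, which is regulated mainly after translation, was not called.

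Genes of the extracellular matrix and of the plasminogen system, a protease cascade that remodels tissue, formed the function list with the next highest median after the synaptic effectors (2.02), with 10 of 33 members called higher and 0 lower. *Plaur*, the urokinase receptor, went from 0.14 and 0.17 CPM to 9.85 and 40.6 CPM (logFC 6.304 ± 0.64, adjusted p = 0.00234). *Timp1*, an inhibitor of matrix metalloproteinases, went from 0.17 and 0.19 CPM to 14.8 and 13.8 CPM (logFC 5.69 ± 0.84). Thrombospondin 1, *Thbs1*, had a logFC of 4.95 ± 1.05. These genes were near the limit of detection in the pre-SE mice. *Timp2* was at 234 and 268 CPM in pre-SE and 229 and 223 CPM in SE 6 h mice and osteopontin, *Spp1*, at 2.48 and 1.10 CPM in pre-SE and 21.04 and 17.9 CPM in SE 6 h mice, and neither was called.

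Vascular growth and endothelial activation genes had 8 of 27 members called higher and 0 lower (list median 1.38). *Angpt2*, which loosens vessels by blocking the TIE2 receptor, went from 0.34 and 0.85 CPM to 5.45 and 15.01 CPM (logFC 3.82 ± 0.52, adjusted p = 0.00486). *Sphk1*, the kinase that makes sphingosine 1-phosphate, and *Procr*, the protein C receptor of endothelium, had logFC values of 3.73 ± 0.698 and 3.62 ± 0.55. *Vegfa* was at 52.01 and 116 CPM in pre-SE and 209 and 229 CPM in SE 6 h mice and was not called (adjusted p = 0.108). Annexins, S100 proteins and cytoskeletal injury genes had 4 of 29 members called higher and 0 lower (list median 1.54). *Tubb6*, a tubulin isotype of injured cells, went from 0.41 and 0.48 CPM to 14.2 and 30.4 CPM (logFC 5.26 ± 0.61, adjusted p = 0.00259), *Emp1* had a logFC of 4.69 ± 0.81 and *Anxa2* went from 5 and 5.53 CPM to 40.2 and 53.4 CPM (logFC 3.12 ± 0.54). *S100a6* was at 24.5 and 45.1 CPM in pre-SE and 57.1 and 102 CPM in SE 6 h mice and was not called (adjusted p = 0.224).

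Of 27 polyamine, pyrimidine and purine genes 3 were called higher (11.1% against 2.76% of all genes) and 0 lower (list median 0.101). Cytidine deaminase, *Cda*, at chr4:137894339-137923907 (mm9, minus strand), had the largest logFC of all genes tested, 7.701 ± 1.19, but its SE 6 h mice differed, at 90.9 and 21.6 CPM, from 0.28 and 0.02 CPM in the pre-SE mice. *Sat1*, which breaks down polyamines, went from 41.04 and 33.7 CPM to 101 and 133 CPM (logFC 1.64 ± 0.26), and adenosine deaminase, *Ada*, had a logFC of 1.99 ± 0.44. Of 25 glycolysis and lactate genes 2 were called higher (8% against 2.76% of all genes) and 0 lower, with a list median of −0.12 (0.004 after rescaling). They were *Pfkfb3*, which speeds glycolysis, at 15 and 11.4 CPM in pre-SE and 32.6 and 46.2 CPM in SE 6 h mice (logFC 1.56 ± 0.29), and the neuronal glucose transporter *Slc2a3* at 70.3 and 49.8 CPM in pre-SE and 154 and 128 CPM in SE 6 h mice (logFC 1.25 ± 0.27). *Aldoa*, an enzyme of the pathway itself, was at 1861 and 1663 CPM in pre-SE and 1529 and 1521 CPM in SE 6 h mice (adjusted p = 0.708).

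Several groups had no call at all in either direction. These were 23 cholesterol synthesis genes (list median 0.29, and 0.42 after rescaling), 30 proteasome subunits (−0.07, and 0.06), 36 respiratory chain genes (−0.22, and −0.09), 36 cytosolic ribosomal proteins (0.14, and 0.27), 26 sodium and calcium channel subunits (−0.198, and −0.07), 24 glutamate receptors (−0.17, and −0.04), 22 GABA receptor and synthesis genes (−0.18, and −0.05), 25 synaptic vesicle genes (−0.35, and −0.22) and 26 interferon-stimulated genes (0.21, and 0.31, with 1 gene called higher after rescaling). With 2 mice a side a missing call does not show that a level was the same. Of the 25 synaptic vesicle genes, 14 were below the pre-SE range in both SE 6 h mice (against 31.3% of all genes) and 2 were above it. *Syp*, synaptophysin of synaptic vesicles, was at 4474 and 4716 CPM in pre-SE and 3412 and 2910.3 CPM in SE 6 h mice, below the pre-SE range in both SE 6 h mice (logFC −0.54 ± 0.31, adjusted p = 0.379). *Psmb5*, a catalytic proteasome subunit, was at 315 and 350.4 CPM in pre-SE and 251 and 208 CPM in SE 6 h mice (adjusted p = 0.301), and *Gria1*, an AMPA receptor subunit, at 820.2 and 708 CPM in pre-SE and 676 and 589 CPM in SE 6 h mice (adjusted p = 0.67). *Sc4mol*, a sterol oxidase also called *Msmo1*, was at 122 and 197 CPM in pre-SE and 269 and 347 CPM in SE 6 h mice (adjusted p = 0.238). Of 27 replication and mitosis genes 1 was called higher, near the share over all genes (3.70% against 2.76%), and the list median was −0.28. It was *Pcna*, the clamp of DNA polymerase, at 44.4 and 44.7 CPM in pre-SE and 92.2 and 159.8 CPM in SE 6 h mice (logFC 1.45 ± 0.33).

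The 32 genes called lower included markers of resting microglia, the resident immune cells of the brain. Of 22 homeostatic microglia markers 3 fell and 1 rose, 11 were below the pre-SE range in both SE 6 h mice (against 31.3% of all genes), and the list median was −0.65. *Tmem119*, a membrane protein that marks resident microglia, at chr5:114243738-114250525 (mm9, minus strand), fell from 14.1 and 15.5 CPM to 2.21 and 2.88 CPM (logFC −2.501 ± 0.34, adjusted p = 0.00475). *P2ry12*, the ADP receptor by which microglia sense injury, fell from 41.5 and 26.9 CPM to 6.51 and 5.14 CPM (logFC −2.51 ± 0.42), and *Selplg*, a selectin ligand, from 30.8 and 50.7 CPM to 4.97 and 9.39 CPM (logFC −2.51 ± 0.42). The pre-SE and SE 6 h mice lay far apart at all 3 genes. *P2ry12* lies within *Med12l* on the other strand, and the summing of tags to genes is not stated to use strand. *P2ry6*, a UDP receptor that triggers phagocytosis, rose from 1.52 and 1.20 CPM to 3.78 and 4.66 CPM (logFC 1.57 ± 0.32, adjusted p = 0.0304). An abundant marker did not pass the test. *Csf1r*, the receptor that keeps microglia alive, was at 67.4 and 71.2 CPM in pre-SE and 48.4 and 41.7 CPM in SE 6 h mice (adjusted p = 0.205). The summed level of the list was 516 and 616 CPM in the pre-SE mice and 391 and 392 CPM in the SE 6 h mice.

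Some of the other genes called lower belong to neurons or neural precursors. *Fam163b*, a marker of dentate granule cells, fell from 77.01 and 92.05 CPM to 24.1 and 22.1 CPM (logFC −1.86 ± 0.31, adjusted p = 0.0113), and *Plk5* is on the same list. *Kcnv1*, a silent potassium channel subunit, fell from 36.7 and 36.2 CPM to 18.9 and 10.5 CPM (logFC −1.37 ± 0.29), the only gene called among 34 potassium and HCN channel genes (list median −0.15, and −0.02 after rescaling). After rescaling it missed the threshold (adjusted p = 0.0534). *Hes5*, a target of Notch in astrocytes and stem cells, fell from 19.97 and 36.2 CPM to 5 and 4.93 CPM (logFC −2.41 ± 0.52) and was the only gene called among 20 Notch pathway genes (list median −0.17, and −0.04 after rescaling). *Insm1*, a factor of neuronal and endocrine precursors, fell from 9.35 and 9.55 CPM to 3.59 and 1.58 CPM (logFC −1.94 ± 0.43). Among the genes called lower, the 3 with the largest loss of mean CPM encode cell surface proteins. *Lrrc4b*, a synaptic adhesion protein, fell from 575 and 568 CPM to 294 and 265 CPM (logFC −1.03 ± 0.23, adjusted p = 0.0431). *Icam5*, an adhesion protein of dendrites, fell from 126 and 157 CPM to 62.9 and 72.4 CPM (logFC −1.06 ± 0.24) and *Lrrn1* from 88.3 and 102 CPM to 37.6 and 29.5 CPM (logFC −1.51 ± 0.31).

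Other called losses had diverse roles. *Slc22a8*, an organic anion transporter of brain barriers, fell from 3.48 and 4.29 CPM to 0.29 and 0.62 CPM (logFC −2.903 ± 0.64, adjusted p = 0.0413). *Chst12*, a chondroitin sulfotransferase, fell from 31.04 and 36.4 CPM to 8.56 and 9.32 CPM (logFC −1.90 ± 0.304, adjusted p = 0.0101). *H1fx*, a linker histone, *Gmpr*, an enzyme of purine nucleotides, *Crocc*, a component of the ciliary rootlet, and *Mccc2*, an enzyme of leucine breakdown, had logFC values of −1.22 ± 0.23, −1.64 ± 0.31, −1.76 ± 0.304 and −1.06 ± 0.24. *Dock8*, a guanine exchange factor of immune cells, fell from 3.10 and 4.68 CPM to 1.09 and 0.75 CPM (logFC −1.96 ± 0.42), and *Ascl4* from 2.07 and 1.84 CPM to 0.32 and 0.21 CPM (logFC −2.51 ± 0.41). *Ndufaf3*, an assembly factor of respiratory complex I that is not on the respiratory chain list, had the smallest logFC of the 32 genes, −0.93 ± 0.21. *Calhm2* had a logFC of −2.89 ± 0.54 but overlaps *Pdcd11* on the other strand.

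**Figure D4:**
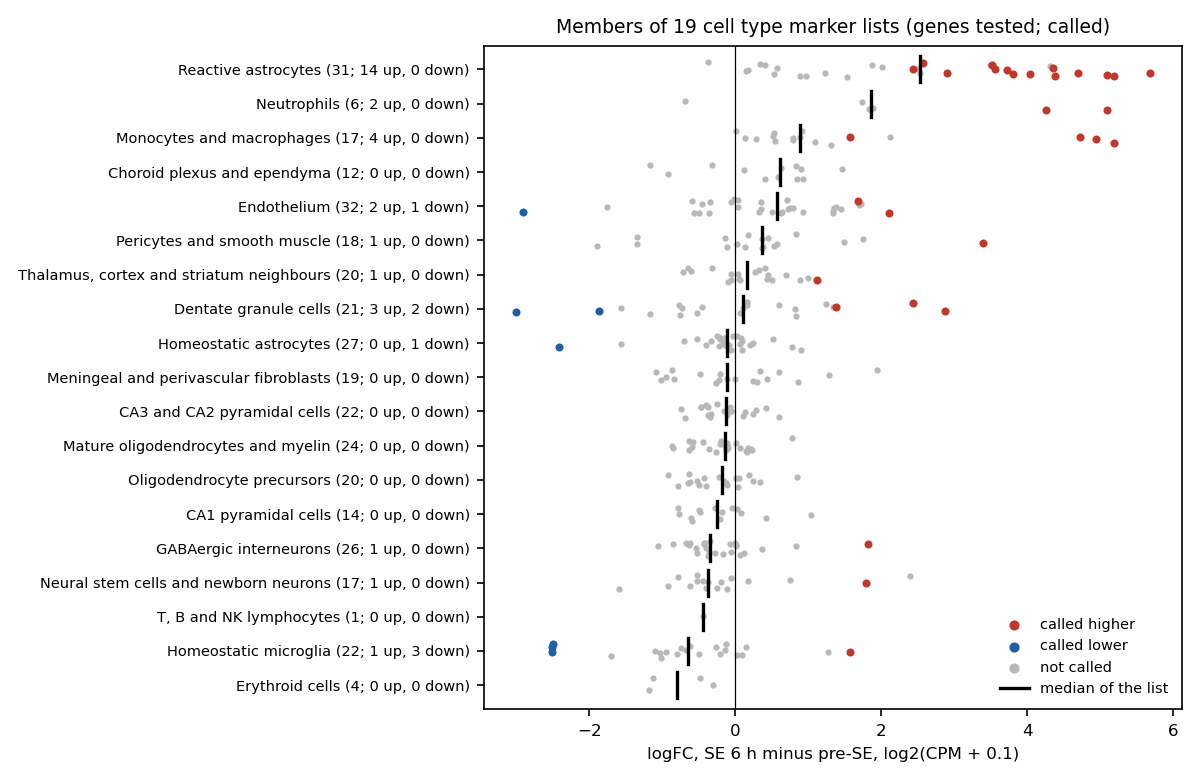
Each row is 1 of 19 cell type marker lists, each point is a member placed by its logFC (SE 6 h minus pre-SE, log2(CPM + 0.1) scale) and the black bar is the list median. Reactive astrocyte markers lie highest (median 2.53, 14 of 31 called higher), and homeostatic microglia, with 3 members called lower, lie at −0.65.

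Reactive astrocyte genes, which astrocytes turn on after injury, rose in the largest number of any cell type list, with 14 of 31 members called higher and 0 lower (list median 2.53). *Cd14* and *Ptgs2*, which are on this list, are also made by myeloid cells and by neurons. The summed level of the list was 488 and 493 CPM in the pre-SE mice and 1478 and 1560 CPM in the SE 6 h mice. *Vim*, a filament protein of reactive astrocytes and vessels, went from 18.9 and 14.7 CPM to 90.7 and 90.8 CPM (logFC 2.44 ± 0.43, adjusted p = 0.0144). *Gfap*, the astrocyte filament, was at 246 and 230.2 CPM in pre-SE and 394 and 783 CPM in SE 6 h mice and was not called (adjusted p = 0.112). Homeostatic astrocyte genes had 0 of 27 members called higher and 1 lower, *Hes5*, with a list median of −0.11 (0.02 after rescaling), and *Slc1a2*, the main glutamate transporter, was at 1547 and 1484 CPM in pre-SE and 1217 and 1179 CPM in SE 6 h mice (adjusted p = 0.512).

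Of 17 tested monocyte and macrophage genes 4 were called higher and 0 lower (list median 0.88), and 9 of the 26 listed genes were not tested. *Cd14*, the coreceptor for endotoxin, went from 1.31 and 0.43 CPM to 34.3 and 29.1 CPM (logFC 5.195 ± 0.63, adjusted p = 0.00296), the scavenger receptor *Msr1* had a logFC of 4.73 ± 0.99, and *Cd68*, a lysosomal protein, went from 6.93 and 6.65 CPM to 21.4 and 19.5 CPM (logFC 1.58 ± 0.35). The fourth, *Thbs1*, is also made by other cells. Neutrophil genes other than *Csf3r* were at low levels in the pre-SE mice. Of 17 listed, 6 were tested and 2 were called higher (33.3% against 2.76% of all genes), *Lcn2* and *Mpo* (list median 1.86). In both SE 6 h mice 5 of the 6 were above the pre-SE range (against 18.6% of all genes) and 1 was below it. *Mpo*, the granule enzyme myeloperoxidase, had 0 and 1 tags in the pre-SE mice and 3.40 and 1.16 CPM in the SE 6 h mice (adjusted p = 0.012), while *Csf3r*, the receptor of the growth factor of these cells, was at 4.45 and 4.24 CPM in pre-SE and 2.63 and 2.67 CPM in SE 6 h mice.

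Of 32 endothelial genes 2 were called higher (6.25% against 2.76% of all genes), *Cdh5* and *Esam*, both of cell junctions. In the same list 1 was called lower, *Slc22a8* (list median 0.57, and 5 higher and 1 lower after rescaling). *Esam* went from 7.79 and 5.67 CPM to 16.9 and 27.5 CPM (logFC 1.68 ± 0.35), and the summed level was 398 and 407 CPM in the pre-SE mice and 506 and 717 CPM in the SE 6 h mice. *Slc2a1*, the glucose transporter of the barrier, was at 79.9 and 81.5 CPM in pre-SE and 131 and 181 CPM in SE 6 h mice (adjusted p = 0.206), and the VEGF receptor *Flt1* had a logFC of 1.35 ± 0.45 and was not called. Of 18 pericyte and smooth muscle genes 1 was called, the contractile protein gene *Cnn1*, with 0 and 3 tags in the pre-SE mice and 0.87 and 1.71 CPM in the SE 6 h mice (adjusted p = 0.0198, 2 called after rescaling, list median 0.37). None of the 19 fibroblast genes was called (list median −0.11, and 0.02 after rescaling).

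Of 21 dentate granule cell genes 3 were called higher (14.3% against 2.76% of all genes) and 2 lower (9.52% against 0.202%) (list median 0.103), but *Jun* and *Btg2* among the 3 are immediate early genes as well, and the other was *Pdzd2* (logFC 1.39 ± 0.302). *Btg2*, an antiproliferative gene, went from 9.69 and 13 CPM to 80.6 and 85.8 CPM (logFC 2.88 ± 0.43). *Prox1*, the factor that defines granule cells, was at 59.1 and 56.1 CPM in pre-SE and 83.9 and 91.3 CPM in SE 6 h mice (adjusted p = 0.346), and *Calb1*, their calcium buffer, was at 349 and 277 CPM in pre-SE and 177 and 109 CPM in SE 6 h mice, below the pre-SE range in both mice (logFC −1.16 ± 0.29, adjusted p = 0.065). None of 14 CA1 and 22 CA3 and CA2 pyramidal cell genes was called (list medians −0.25 and −0.13), and 1 of 26 interneuron genes was (list median −0.35). *Sox11*, a factor of newborn neurons, rose from 24 and 23.7 CPM to 117 and 58.4 CPM (logFC 1.79 ± 0.34), the only gene called among 17 stem cell and newborn neuron genes (list median −0.37). Of 20 genes of neighbouring regions 1 was called higher (5% against 2.76% of all genes), *Fezf2*, a factor of deep cortical neurons (logFC 1.12 ± 0.25, list median 0.16). No myelin (24 tested, list median −0.13) or oligodendrocyte precursor gene (20 tested, −0.19) was called.

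Most called genes lay outside the lists, with 303 of the 437 genes called higher and 24 of the 32 called lower. *Arpp21*, a thymocyte and striatal phosphoprotein gene that hosts the neuronal microRNA miR-128-2, had the largest difference of mean CPM among called genes after *Hspa1a*, at 237 and 222 CPM in the pre-SE mice and 1677 and 1562 CPM in the SE 6 h mice (logFC 2.82 ± 0.34, adjusted p = 0.00296). It lies at chr9:111967595-112138442 (mm9, minus strand), where the microRNA gene and other RNA genes overlap it. *Gm13630*, a long noncoding RNA at chr2:66247551-66259645 (mm9, plus strand) that lies opposite the sodium channel gene *Scn1a*, went from 0.38 and 0.17 CPM to 15.1 and 45.8 CPM (logFC 6.20 ± 0.69, adjusted p = 0.00234). *Chrne*, the epsilon subunit of the muscle acetylcholine receptor, went from 0.21 and 0.10 CPM to 16.4 and 16.9 CPM (logFC 6.07 ± 0.77), and it overlaps an RNA gene on the other strand. *Xirp1*, an actin binding protein of muscle, was at 0.14 and 0 CPM in the pre-SE mice and at 28.96 and 2.33 CPM in SE 6 h mice 1 and 2 (logFC 5.76 ± 0.95). *Gm5844*, a pseudogene whose tags may belong to another copy, had levels of 762 and 591 CPM in the pre-SE mice and 2514 and 1501 CPM in the SE 6 h mice (logFC 1.53 ± 0.29). Of the 437 genes, 381 were protein coding, 134 overlapped a gene on the other strand and 68 overlapped one on the same strand, and 165 were higher in SE 6 h mouse 1 than in mouse 2. The same counts over all genes tested were not made, so these describe the 437 genes and mark nothing particular to them.

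The later group was compared directly with SE 6 h. Between SE 2 days and SE 6 h, 498 genes were higher at 2 days (3.14%) and 176 were lower (1.11%). Of the 437 genes called higher at 6 h, 108 were lower at 2 days than at 6 h, 7 were higher and 322 were not called in this comparison. Of the 32 called lower at 6 h, 8 were higher at 2 days and 0 were lower. Both comparisons use the same SE 6 h mice. Genes picked for high or low values in those mice lean the other way against any other group. The balance of these counts is therefore no independent measure of a fading response. Among heat shock genes 5 were lower at 2 days and 1 was higher. *Dnajb1* was at 65.5 and 82.1 CPM at 2 days (logFC against 6 h −2.88 ± 0.34, adjusted p = 0.00285) and *Hsp90aa1* at 305 and 229 CPM (−1.79 ± 0.34, adjusted p = 0.0173), and the SE 2 days mice overlapped the pre-SE mice at both genes. *Hspa1a* was at 126 and 533 CPM (−3.85 ± 0.89, adjusted p = 0.0405). Among neuropeptide genes 4 were lower and 1 was higher. *Crh* was at 1.61 and 5.30 CPM (−4.22 ± 0.57, adjusted p = 0.00467), *Nts* at 5.55 and 4.78 CPM (−2.04 ± 0.39) and *Tac1* at 3.77 and 4.49 CPM (−2.25 ± 0.42), and the pre-SE and SE 2 days mice of *Nts* and *Crh* overlapped.

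**Figure D5:**
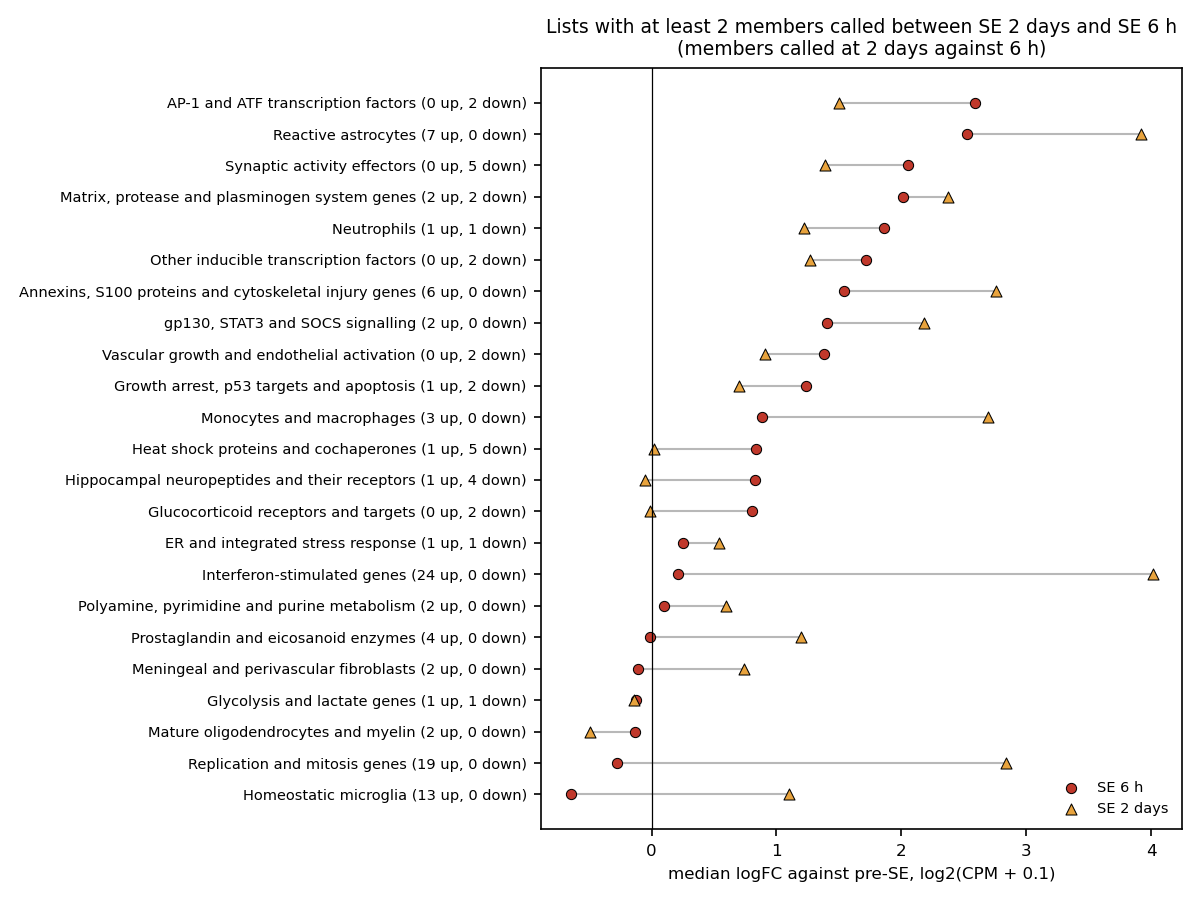
Each row is 1 of 23 gene lists with at least 2 members called between the times, with its median logFC against pre-SE at 6 h (red circles) and at 2 days (triangles). Both times share the pre-SE mice, and interferon-stimulated genes lie at 0.21 at 6 h and 4.01 at 2 days.

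Other groups had more members called higher than lower at 2 days against 6 h. Of 26 interferon-stimulated genes 24 were higher at 2 days than at 6 h, with list medians against the shared pre-SE mice of 0.21 at 6 h and 4.01 at 2 days. *Isg15*, a ubiquitin-like protein induced by interferon, was at 1.17 and 1.51 CPM in the pre-SE mice, 3.75 and 3.56 CPM at 6 h and 276 and 88.7 CPM at 2 days. Of 27 replication and mitosis genes 19 were higher at 2 days (medians −0.28 and 2.84), as were 13 of 22 homeostatic microglia genes (−0.65 and 1.10) and 7 of 31 reactive astrocyte genes (2.53 and 3.92). *Tmem119* was at 36.4 and 30.8 CPM at 2 days, above the pre-SE range (logFC against 6 h 3.68 ± 0.34, adjusted p = 0.00172), and *Selplg* at 56.9 and 34.9 CPM (2.69 ± 0.42). *Gfap* was at 2282 and 3642 CPM (2.38 ± 0.36, adjusted p = 0.00703) and *Vim* at 368 and 737 CPM (2.52 ± 0.43). AP-1 and ATF genes, in contrast, had 2 members lower at 2 days and 0 higher (medians 2.59 and 1.502), and *Fosb* was at 76.5 and 171 CPM without a call (−2.43 ± 0.69, adjusted p = 0.084).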

How the data were processed

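Hippocampal CAGE libraries of 10 male mice in 5 groups of 2 were used. The authors mapped reads with BWA 0.7.17 and leftover reads with HISAT2 2.0.5 to mm9, clustered tags with RECLU, and deposited CPM per gene, rounded to 0.01. How clusters were summed to genes, and whether strand was used, is not given in the sources used here. All 15900 gene identifiers matched the annotation in the file, and 0 columns of mouse values were left out. The depth of each library was taken as the smallest total at which the CPM values were whole numbers of tags within rounding and summed back to that total. The share of whole values (100%) is thus fixed by this choice and is no check of it. Rounding is worth 5.27% to 25.9% of 1 tag, and a stricter check with a tolerance of 0.1 tag found the steps in 3 of the 10 libraries, of which SE 6 h mouse 2 is the only library of the main comparison. Depths, tag counts, floors and the edgeR and DESeq2 alternatives rest on this estimate, and limma on CPM does not.

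The 15851 genes that reached 0.1 CPM in 2 or more libraries were fitted as log2(CPM + 0.1) with limma 3.58.1 (R 4.3.3), with 5 group means over the 10 libraries and a trend of the variance on the mean. Tests were two-sided and adjusted over all these genes by Benjamini-Hochberg. A gene was called at an adjusted p of at most 0.05. Genes were named where they were among the 15 called genes with the largest logFC or difference of mean CPM in each direction, or among up to 4 called and 2 abundant uncalled members of each list. Exceptions are genes that overlap or copy a named gene, genes behind printed promoters and genes named as chosen after their values were seen. Some items that the rule names are not reported here. Where pre-SE mice held 1 to 3 tags in all, levels replace a fold. The gene lists were chosen with earlier results of these data known, and no list was tested as a set. Nothing says that mice were housed or processed apart, so p-values measure the spread between these libraries. With 2 against 2, an exact permutation test of 1 gene could not go below p = 0.333. RefSeq promoters (GRCm38.p6) were found for 11404 genes tested (11280 distinct entries), 1259 of them through an older symbol, and 14 motifs were searched on both strands. Shares are printed for only some of these motifs and lists, so those printed do not stand for all 14. A share over a list or over called genes is printed only where at least 80% of the genes had a promoter, apart from that over all tested synaptic effectors (76.7%). The steps were tested on simulated data. Alternatives were other pseudocounts (0.01, 0.5, 1), filters, rescaling, a replicate block, other fits, and edgeR 4.0.16 and DESeq2 1.42.0 on the recovered tags. Floors cover counting error only.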

Additional observations from a re-analysis of the deposited data

Results flagged for a closer look

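The genes here were picked out because limma's direct comparison of SE 2 days with SE 6 h called them (adjusted p of at most 0.05), so that their response differed between the times. Many of them were also named for their call at 6 h, which rests on the same SE 6 h mice. Values are log2(CPM + 0.1) at 2 days minus 6 h. Groups of 2 mice are too small for a check of single mice that stand apart.

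Chaperone genes were lower at 2 days, by −3.85 for *Hspa1a*, −2.56 for *Hspa1b*, −2.88 for *Dnajb1*, −1.79 for *Hsp90aa1* and −1.38 for *Dnaja1*. Neuropeptide and granule genes were lower as well, with −4.22 for *Crh*, −2.25 for *Tac1*, −2.04 for *Nts* and −1.94 for *Pcsk1*. Among inducible signalling and stress genes the differences were −2.19 for *Maff*, −1.48 for *Gadd45b*, −1.93 for *Errfi1*, −1.53 for *Arl4d*, −2.099 for *Arl5b* and −1.51 for *Ppp1r15a*. Outside these groups *Chrne* differed by −6.65, *Gm13630* by −4.84, *Mpo* by −3.09, *Arpp21* by −2.01, *Slc2a3* by −1.54, *Gm5844* by −1.47 and *Cdh5* by −1.31.

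Glial and immune genes were higher at 2 days. Microglia genes differed by 3.68 for *Tmem119*, 2.69 for *Selplg*, 1.49 for *Csf1r* and 1.34 for *P2ry6*. Genes of reactive glia and injury differed by 2.52 for *Vim*, 2.38 for *Gfap* and 2.896 for *S100a6*. The interferon-stimulated gene *Isg15* differed by 5.38, and the myeloid genes *Csf3r*, *Cd68* and *Dock8* by 1.98, 1.64 and 3.39. Of the other genes called lower at 6 h, *Calhm2* differed by 2.27, *Fam163b* by 1.402 and *Ndufaf3* by 0.94.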

How the results depend on the processing

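Under the 11 alternatives with every library, 230 of the 437 genes called higher and 14 of the 32 called lower were called each time. DESeq2 on the recovered tags called 1008 higher and 99 lower, and 432 and 32 of the main calls were among them. The edgeR test called 497 higher and 20 lower, and 425 and 20 of them were main calls. A limma fit of only the SE 6 h and pre-SE libraries called 395 higher and 27 lower, and 319 and 18 of them were main calls. For SE 2 days against SE 6 h, edgeR called 319 higher and 157 lower and DESeq2 707 higher and 586 lower. Leaving out each library in turn gave 108 to 182 genes called higher and 2 to 9 lower for SE 6 h against pre-SE, and 116 to 147 higher and 42 to 46 lower for SE 2 days against SE 6 h. A lone mouse was then assumed to vary like the other groups. Over the 108 called genes used in the text, 1066 of the values under the alternatives with every library kept their direction and call and 122 kept the direction only, and without 1 library these counts were 168 and 264. The 36 uncalled genes came past the threshold in 30 such values with every library and in 1 without a library. No value of a gene named with a logFC changed sign. With the replicate number as a block, 373 genes were called higher and 29 lower (349 and 20 of them main calls), and 413 and 136 for SE 2 days against SE 6 h. The numbers only name mice, and deviations of same-numbered mice correlated at 0.34 between SE 6 h and pre-SE and at −0.02 between SE 2 days and SE 6 h. In the shallowest library compared here, SE 6 h mouse 2, 3 tags were worth 0.206 CPM, and in the shallowest of the 10 libraries in the fit 0.285 CPM, which limits what can be said of genes below those levels. The causes of these shifts were not tested.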
